A study of Mus musculus with 8 samples.

Results

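The clusters described here are the places where Argonaute-bound RNA fragments piled up in the 5' UTR, the stretch of an mRNA between its start and its start codon. They were taken from a single table of read clusters made by FLAG-Ago HITS-CLIP, in which RNA is crosslinked to a tagged Argonaute protein, pulled down with an antibody to the tag and sequenced. A cluster was a member if the table named a gene in its 5' UTR column and none in its 3' UTR column. This gave 1889 of 70142 clusters, or 2.69% (95% Wilson interval 2.58 to 2.82), with 50460 of the table's reads. They fall into 894 clusters that name no coding sequence (CDS) and 995 that also name one.

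The tissue was forebrain of mice aged 8 to 14 weeks. The Flag-Ago2 group had 5 libraries, whose titles bear 3 different numbers. Its mice carried Camk2a-cre together with Rosa-Stopfl/fl-Flag-Ago2, so that Cre under the Camk2a promoter switched on the tagged Ago2. The control group, with 3 libraries, carried Rosa-Stopfl/fl-Flag-Ago2 without Cre, so the conditional allele was present in every mouse. Camk2a is an excitatory neuron gene, and endogenous Argonaute carries no tag. The table has 1 read count per cluster and 0 columns that belong to a single library. The Flag-Ago2 and control groups can therefore not be compared, no value has a replicate spread, and the intervals given cover counting error only.

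Argonaute proteins hold a miRNA and find RNAs that pair with its seed, bases 2 to 8 of the miRNA. The sites best known to lower mRNA stability and translation lie in the 3' UTR. The 5' UTR is crossed by the small ribosomal subunit as it scans for the start codon, and it is often rich in G and C, folded, and interrupted by short upstream reading frames. In neurons these features are known to set how much protein several synaptic and stress-response mRNAs give.

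The table counts, for each cluster and miRNA, the 6-base matches to miRNA bases 2 to 7. Of 29 miRNA families known to be abundant in brain, those printed here had the highest counts in the members relative to other 6-base words made of the same letters. Their mature sequences are from RefSeq, with the seed in capitals.

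miR-15a-5p: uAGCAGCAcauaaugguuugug
miR-103-3p: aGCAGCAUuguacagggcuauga
miR-128-3p: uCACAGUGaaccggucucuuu
miR-27a-3p: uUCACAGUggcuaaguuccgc
miR-22-3p: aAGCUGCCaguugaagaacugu
miR-135a-5p: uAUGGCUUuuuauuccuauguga

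The seeds of miR-15a-5p and miR-103-3p share GCAGCA, and those of miR-128-3p and miR-27a-3p share CACAGU. A single stretch of RNA can thus be counted for both members of each pair. For each family, 1 or both of the 2 deepest members with such a match and a sequence are shown in the sense of the transcript, each as a window of 30 bases with the matching bases in capitals, on build mm10.

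Srgap3, miR-15a-5p match, chr6:112946792-112946821, minus strand, 180 reads: tgtgtgctcttgGCTGCTattattattatt
Mgat4a, miR-103-3p match, chr1:37536304-37536333, minus strand, 166 reads: ccactgttgcttTGCTGCctgacgccttct
Polr2g, miR-128-3p match, chr19:8798422-8798451, minus strand, 168 reads: ggatgcggggtaACTGTGaggggcagtcac
Kalrn, miR-128-3p match, chr16:34513989-34514018, minus strand, 110 reads: ccctggagactgACTGTGaaggatgagttc
Srgap3, miR-27a-3p match, chr6:112946587-112946616, minus strand, 180 reads: agcccttgaaacCTGTGAaatcgaccattg
Ppp1r9b, miR-22-3p match, chr11:94991225-94991254, plus strand, 106 reads: cgcgcggtcccaGCAGCTccagccagcctc
Sipa1l1, miR-135a-5p match, chr12:82340904-82340933, plus strand, 155 reads: gtattttctggaAGCCATtctctaaagcag

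Many members of the second subgroup span the start codon itself. The windows below show it in capitals for the 5 deepest of these with a sequence, with the CDS to its right.

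6430548M08Rik, chr8:120145320-120145349, plus strand, 666 reads: ggcagcccagctaccATGgaggccccagaa
Agap2, chr10:127079607-127079636, plus strand, 239 reads: gggtctccgggccccATGagccggggcgcg
Babam1, chr8:71397714-71397743, plus strand, 199 reads: aaccactcgggaaccATGgaggtggcagag
Abhd17a, chr10:80586832-80586861, minus strand, 196 reads: ggcccggtgcccgccATGaacggcctgtcg
Cdc42bpa, chr1:179961095-179961124, plus strand, 139 reads: gaaatcgaagcaaacATGtccggagaagtg

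The label was checked against the GENCODE M21 annotation, and most members did hold 5' UTR. At least 1 base of a coding transcript's 5' UTR lay in 1529 of the 1889 members, or 80.9% (Wilson 79.1 to 82.7), and these were spread evenly over the strands, with 755 on plus and 774 on minus. The other 360 held no such base, and 327 of them lay on the plus strand against 33 on the minus strand.

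Among the 894 members without CDS, 752 (84.1%) overlapped a coding 5' UTR, 109 (12.2%) named a non-coding gene and 33 fell in neither class. The first class split into 378 on plus and 374 on minus, while all 109 of the second were on plus. The table's 3' UTR column showed the opposite pattern: of 179 clusters there that named a non-coding gene, 177 were on minus. Clusters that name a non-coding gene thus stood in different columns on the different strands.

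Among the 995 members with CDS, 740 (74.4%, Wilson 71.6 to 77.0) held an annotated start codon, 37 held coding 5' UTR but no start codon, and 218 (21.9%) held no coding 5' UTR base. The start codon class had 359 clusters on plus and 381 on minus. The class with no coding 5' UTR base had 192 on plus and 26 on minus, and 188 of its 218 clusters (86.2%) overlapped an exon of a transcript annotated as non-coding, as did 61.9% of the start codon class and 54.7% of the members without CDS in a coding 5' UTR. In what follows, "coding 5' UTR clusters" are the 752 and "start codon clusters" the 740.

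**Figure D1:**
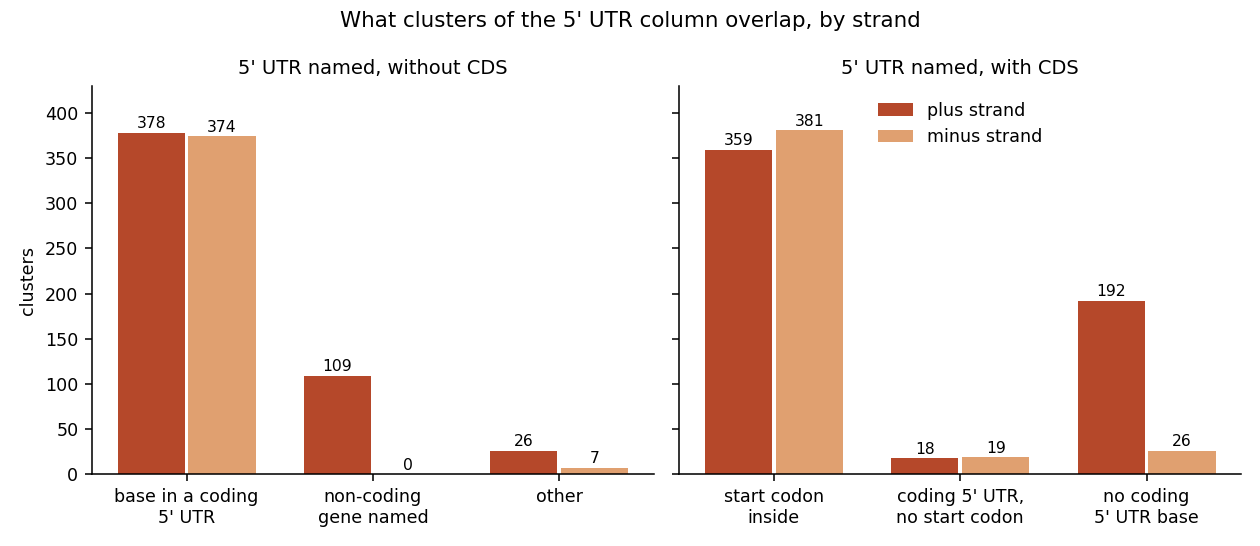
Number of member clusters (y axis) in each class of annotation overlap (x axis), for members without CDS at left and with CDS at right, by strand. The 752 coding 5' UTR clusters and the 740 start codon clusters are evenly split between strands, whereas the 109 clusters of non-coding genes all lie on the plus strand.

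Depth per cluster was much like that of other exonic clusters in the middle of the range, with fewer very deep ones. Members without CDS held a median of 20 reads (quartiles 14 and 29) and those with CDS also 20 (14 and 30), against 21 in 7679 clusters that name only a 3' UTR and 21 in 11965 that name only CDS. The deepest members reached 723 and 666 reads, against 5730 in 3' UTR and 17721 in CDS. Clusters of at least 100 reads made up 1.34% of the members without CDS and 1.71% of those with CDS, against 2.58% of 3' UTR and 2.35% of CDS clusters. Over the whole table the share was 1.37%, near that of the members, and over clusters that name only an intron it was 0.798%. The median width was 131 bases without CDS and 142 with CDS, against 142 in 3' UTR and 133 in CDS.

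Per length of transcript, 5' UTRs carried fewer clusters than the rest of the mRNA. A principal mRNA was taken for each of 7792 genes with an exonic cluster, and each cluster was placed by its centre, whatever columns it named. A cluster that begins at or after the transcript start has its centre further in. Few centres can thus fall in the first bases of a 5' UTR, though these bases count in its length. The part of this edge in the densities was not tested. The 5' UTRs, with a median length of 206 bases, held 885 centres, or 41.8 per 100 kb (exact Poisson 95% interval 39.1 to 44.7). The CDS held 76.0 per 100 kb (74.7 to 77.4) and the 3' UTR 55.9 (54.7 to 57.2). By reads the order was the same, with 10.7 per kb in 5' UTRs, 22.7 in CDS and 18.1 in 3' UTRs, or 10.6, 22.5 and 17.7 without the deepest cluster of each. At 20 reads or more the 5' UTR density was 22.2 per 100 kb, against 41.7 in CDS and 31.3 in 3' UTRs, so the order did not depend on the shallow clusters.

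The change came at the start codon. Density was 35.1, 40.1, 37.4, 40.0 and 50.2 per 100 kb in successive bins of 100 bases up to the start codon, and 89.2 (82.7 to 96.1), 85.5, 82.8, 85.3 and 86.1 in the bins after it. The last bin before the start codon, with an interval of 45.2 to 55.7, stood above the bin before it (34.6 to 45.9) only with intervals that overlap slightly. All 5 bins after the start codon also stood above the 76.0 per 100 kb of the whole CDS, each with an interval that excludes this value. The lowest limit, 76.5, was that of the bin from 200 to 300 bases. Counted from the transcript start, density within 5' UTRs was 34.2 per 100 kb in the first 100 bases (30.1 to 38.8), 43.1 in the next and 47.4 in the third. The edge at the transcript start described above bears most on the first of these bins, and its part was not tested. Median reads per cluster were 18.5 to 22 in every bin of both series, so the bins differed in the number of clusters and hardly in their depth.

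**Figure D2:**
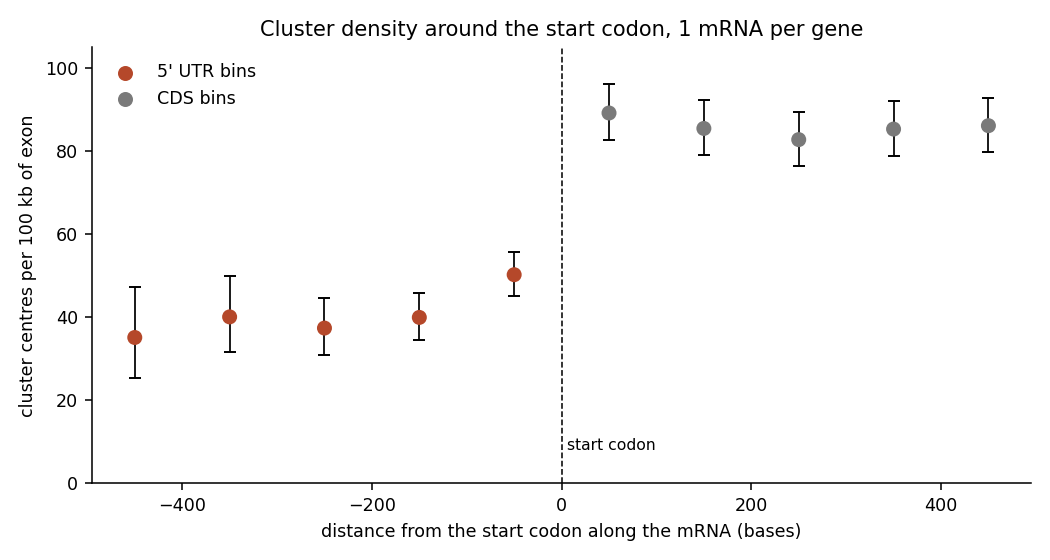
Cluster centres per 100 kb of exon (y axis) by distance from the start codon along 1 mRNA per gene (x axis, bins of 100 bases), with exact Poisson 95% intervals. The 5' UTR bins lie between 35.1 and 50.2 and the CDS bins between 82.8 and 89.2.

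Coding 5' UTR clusters lay well upstream of the start codon and mostly in the first exon. Their centres were at a median of -189 bases from it (quartiles -331.5 and -106.75), in 5' UTRs with a median length of 394 bases, and 616 of the 752 were best placed in the first exon. A transcript start lay inside 265 of them, or 35.2%. In start codon clusters the centre sat at a median of +15 bases (quartiles -16 and 40.5), and 560 of the 739 that could be placed lay within 50 bases of the start codon. Here the 5' UTR was shorter, with a median of 202 bases, and 441 of the 739 were in the first exon. The position of a start codon cluster is fixed in part by its definition, but the definition leaves room on both sides for clusters with a median width of 146 bases.

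The genes of both classes also differed in the bases around the start codon. A purine 3 bases before the start codon together with a G right after it, the strongest known context for initiation, was found in 50.1% of 722 genes with a start codon cluster (Wilson 46.5 to 53.8) and in 36.6% of 689 genes with a coding 5' UTR cluster (33.1 to 40.3). The value was 45.5% in the 7792 genes with an exonic cluster. Among the start codons printed above, those of 6430548M08Rik and Babam1 have this context. The 5' UTRs of the classes also differed in length, with a median of 208.5 bases for the genes with a start codon cluster and 376 for those with a coding 5' UTR cluster, and the part of length in the difference was not tested.

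Members were rich in G and C, which separates them from the clusters in which miRNA sites are usually described. Sequence over the whole cluster was at hand for 640 members without CDS (71.6%) and 524 with CDS (52.7%). It was at hand for 95.2% of 3' UTR and 39.6% of CDS clusters, so the regions were not covered evenly. The median GC content was 61.3% without CDS and 60.4% with CDS, against 47.7% in 3' UTR and 53.0% in CDS clusters. The dinucleotide CG stood at 0.734 and 0.725 of the frequency its letters give, against 0.253 in 3' UTR and 0.450 in CDS clusters. The classes again differed: coding 5' UTR clusters were at 63.0% GC and start codon clusters at 61.7%, whereas clusters of non-coding genes were at 48.0%, close to 3' UTRs.

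Upstream start codons and quadruplex-forming runs were also counted. The trinucleotide ATG occurred 0.777 times as often in coding 5' UTR clusters as the mean of the other words with the same letters, against 1.17 in 3' UTR and 1.36 in CDS clusters. At least 1 ATG was nevertheless present in 306 of 540 coding 5' UTR clusters with sequence, or 56.7%. A G-quadruplex motif, here 4 runs of at least 3 G with at most 7 bases between them on the transcript strand, was found in 6.30% of these clusters (Wilson 4.54 to 8.67), in 5.58% of start codon clusters (3.75 to 8.24), and in 2.57% of 3' UTR (2.23 to 2.96) and 0.991% of CDS clusters (0.746 to 1.32). It was thus found about as often in both member classes and less often in the other regions, which are also poorer in G.

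The commonest miRNA 6-mer in members was an all-GC word. GGCGGC, counted for miR-1900, had 767 matches and was present in 378 members, or 20.0% (Wilson 18.3 to 21.9), against 1.56% of 3' UTR and 3.59% of CDS clusters. Many copies came in runs: the coding 5' UTR cluster of Tab2, an adaptor of TAK1 kinase signalling, held 13 matches at 15 reads, that of Srrm2, a spliceosome protein, 11 at 23 reads, and the start codon cluster of Purb, a DNA- and RNA-binding protein, 11 at 16 reads. These 3 were chosen by their number of matches, and none of them was deep. More broadly, the median rate over all 14 miRNA 6-mers made only of G and C was 0.696 per kb in members, 0.0949 in 3' UTR and 0.228 in CDS clusters. For the 50 with a single G or C it was 0.0878, 0.275 and 0.133. Match rates in members thus differed with the G and C in the 6-mer, and raw rates stand beside that below.

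Matches to brain miRNAs were less common than in 3' UTRs for most families. At least 1 of the 29 families had a match in 1301 members, or 68.9% (Wilson 66.7 to 70.9), against 80.6% of 3' UTR clusters (79.7 to 81.4) and 75.2% of CDS clusters (74.4 to 75.9). Over 22 of the 29 families the rate per kb was lower in members than in 3' UTR clusters, 18 of them with intervals that do not overlap. The highest rate of the other 7, in members, was that of miR-15a-5p with 332 matches, or 1.14 per kb (1.02 to 1.27), against 0.689 in 3' UTR and 0.816 in CDS clusters. It was followed by miR-103-3p with 0.903 per kb, against 0.634 and 0.715. The families of miR-22-3p, miR-24-3p and miR-138-5p were the others whose rates in members exceeded those in 3' UTRs with intervals apart.

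The best-known neuronal families were lower. The let-7a-5p match, of the let-7 family abundant in mature neurons, had 38 matches in members, or 0.131 per kb (0.0927 to 0.180), against 0.252 in 3' UTR and 0.249 in CDS clusters. That of miR-9-5p had 0.259 per kb, against 0.410 and 0.545. The column of miR-124-3p, the leading miRNA of neurons, gave 0.331 per kb (0.268 to 0.404), against 0.695 and 0.478. The miR-128-3p match had 184 matches, or 0.634 per kb (0.546 to 0.733), against 0.899 and 0.831. In 0 of the 29 families did the rates of members without and with CDS have intervals apart, so the subgroups could not be told from each other by family at this depth.

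Against words of the same letters, the order changed and the spread was wide. The ratio of matches to the median of the other 6-base words with the same letters was above 1 for 20 of 29 brain families in members. It was above 1 for 26 in 3' UTR and 24 in CDS clusters. The median ratio was 1.33 in members, 1.92 in 3' UTR and 1.72 in CDS clusters. In coding 5' UTR clusters alone, 21 brain families were above 1 and the median was 1.875. In start codon clusters alone, the values were 17 and 1.50. The 12 families of other tissues gave 8 above 1 and a median of 1.27 in members. Their medians were 1.56 in coding 5' UTR clusters and 1.04 in start codon clusters. With CDS the medians were 1.53 for brain families and 1.00 for those of other tissues, but without CDS they were 1.60 and 1.48. The lists thus lay apart in 1 subgroup and close together in the other and in all members. The highest ratio of the other-tissue families in all members was 2.16, for miR-223-3p. The highest in members were miR-15a-5p with 4.93 (4.26 to 5.66), miR-103-3p with 3.80, miR-128-3p with 3.68 (2.97 to 4.51), miR-27a-3p with 3.48, miR-22-3p with 3.45 and miR-135a-5p with 3.37. Words that contain CG are rare in the genome and lower the median they enter. The words compared were then required to hold the same number of CG pairs, a comparison chosen after the data were seen. The ratios became 3.28, 2.53, 2.71, 2.56, 1.97 and 2.29 in that order, and 17 of 29 families stayed above 1. In this comparison 24 families were above 1 in 3' UTR clusters and 20 in CDS clusters. Its medians lay closer together, at 1.15 in members, 1.28 in 3' UTR and 1.22 in CDS clusters.

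The strand of the matches separated the families further. A miRNA in Argonaute can pair only with the transcript strand, and the opposite strand of the same clusters has the same length and GC content. It swaps G with C and A with T, however, so an uneven use of these letters also moves the share. The part of this in the shares was not tested. In the members with sequence, miR-128-3p had 92 matches on the transcript strand and 30 on the opposite strand, so that 75.4% (Wilson 67.1 to 82.2) lay on the transcript strand. The share was 80.9% for miR-23a-3p, 70% for miR-181a-5p, 69.2% for miR-26a-5p, 67.8% for miR-29a-3p, 67.3% for miR-132-3p, 66.4% for miR-27a-3p and 62.8% for miR-24-3p, all with intervals above 50%. For miR-15a-5p it was 55.0% (49.8 to 60.1) and for miR-103-3p 52.8% (47.0 to 58.5), so the families with the highest rates had nearly as many matches on the opposite strand. Shares below 50%, with intervals below it, were found for miR-17-5p, miR-7a-5p, miR-129-5p, miR-9-5p, miR-138-5p and miR-22-3p. In 3' UTR clusters miR-128-3p was at 71.2% (68.9 to 73.5) and miR-15a-5p at 59.0%. In members, the ratio to words of the same letters was 3.68 on the transcript strand and 1.58 on the opposite strand for miR-128-3p. It was 2.71 and 2.15 for miR-29a-3p, and 4.93 and 3.66 for miR-15a-5p. Of the 29 families, 18 had such a ratio above 1 on the opposite strand, against 20 on the transcript strand. The count of families above 1 thus hardly differed between the strands.

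One value bears on miR-128-3p, miR-132-3p and miR-27a-3p. The word GACTGT, which no miRNA column counts, overlaps the miR-128-3p match ACTGTG by 5 letters and is also part of the sequence complementary to the kit's 5' adapter. It overlaps the miR-132-3p match ACTGTT by 5 letters too, and the miR-27a-3p match CTGTGA by fewer. GACTGT had 83 matches on the transcript strand of members and 23 on the opposite strand, a share of 78.3% (69.5 to 85.1). Its ratio to words of the same letters was 3.32. It was thus about as frequent as the miR-128-3p match itself. The parts of the adapter and of miR-132-3p in the counts were not tested.

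**Figure D3:**
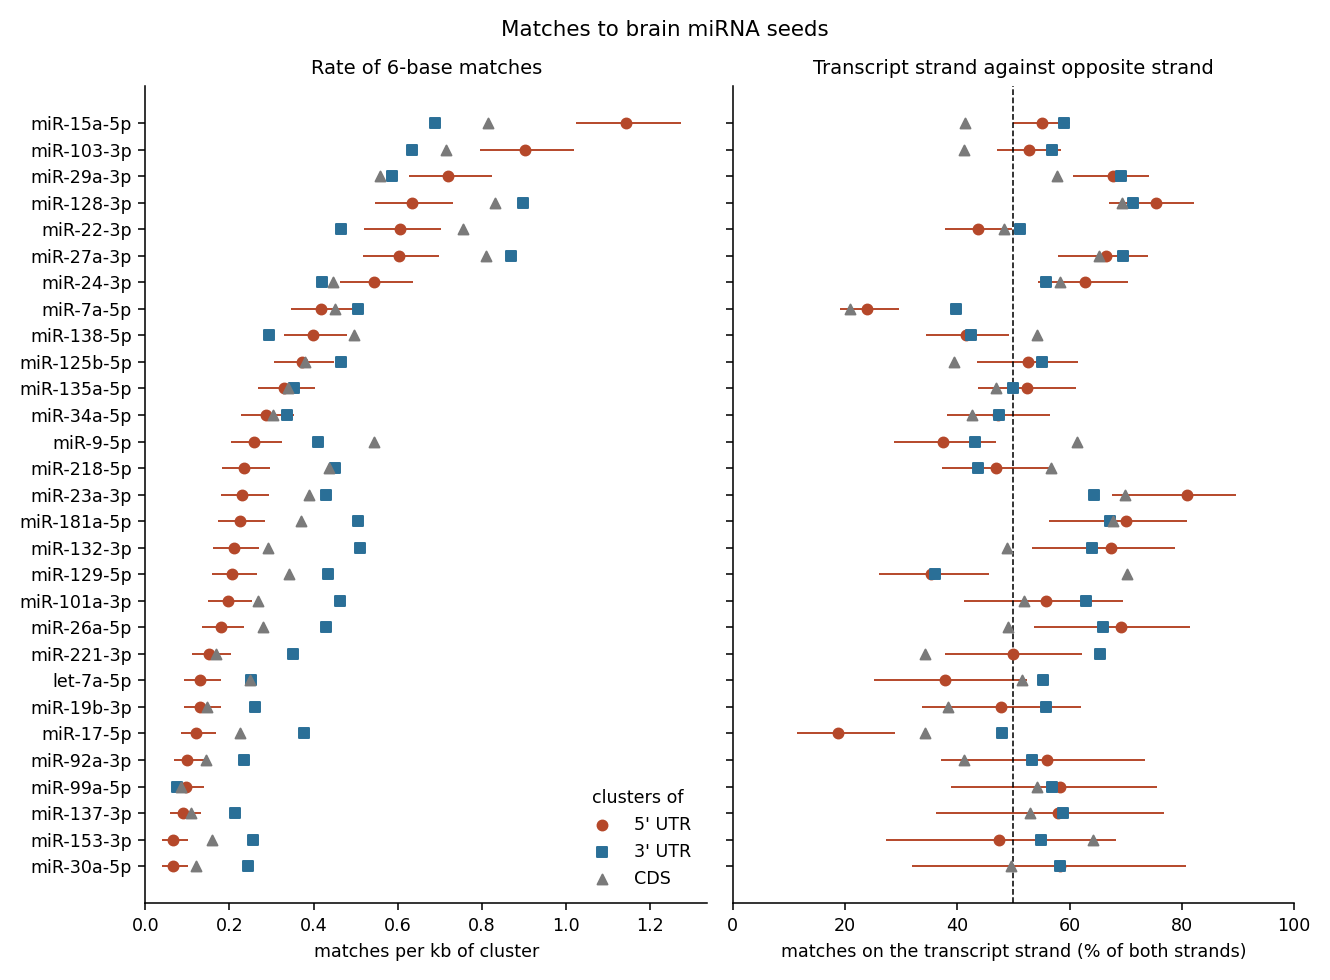
At left, 6-base matches per kb of cluster (x axis) for 29 brain miRNA families (y axis) in 5' UTR members with exact Poisson 95% intervals, and in 3' UTR and CDS clusters. At right, the share of matches on the transcript strand, in percent of both strands, with Wilson intervals for members and a dashed line at 50. miR-15a-5p has the highest rate in members at 1.14 per kb but a strand share of 55.0%, and miR-128-3p a share of 75.4%.

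Identifiers of circular RNAs, which form when a downstream splice site joins back to an upstream one, were attached to 65 members without CDS, or 7.27% (Wilson 5.75 to 9.16), and to 171 with CDS, or 17.2% (15.0 to 19.7). In 3' UTR clusters the share was 3.45% and in CDS clusters 27.5%. The shares differed between first and later exons in both subgroups. In the first exon, 2.27% of members without CDS (1.36 to 3.77) and 5.47% of those with CDS (3.73 to 7.95) had an identifier. In later exons the shares were 26.5% (19.8 to 34.5) and 26.3% (21.8 to 31.4), within the interval of each other and close to that of CDS clusters. The 218 members with CDS but no coding 5' UTR base, which are not in this split, held 62 of the 171 identifiers of their subgroup, a share of 28.4% (22.9 to 34.8). Back-splicing is known to need a splice acceptor at the upstream exon, which a first exon lacks.

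**Figure D4:**
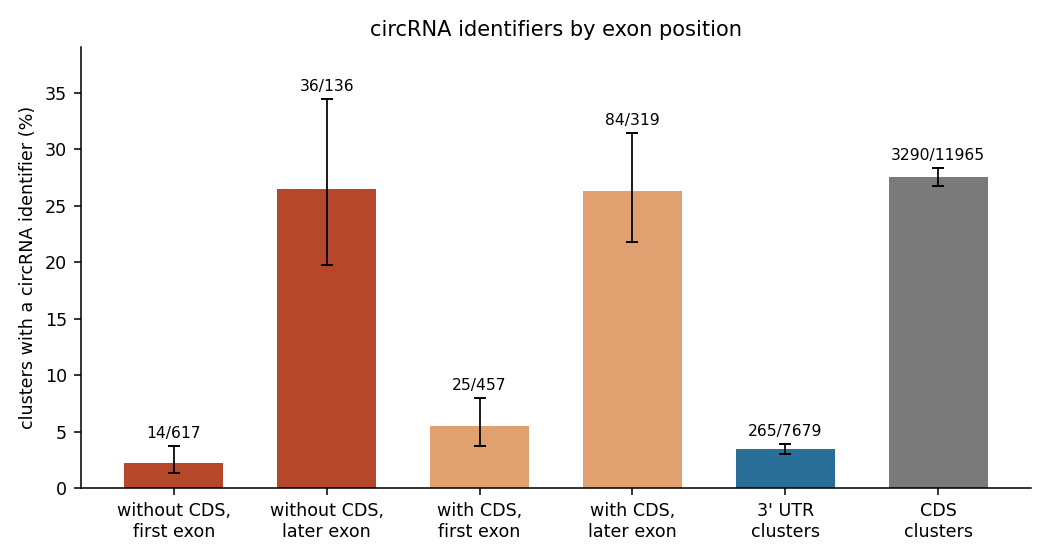
Share of clusters with a circRNA identifier, in percent (y axis), for members without and with CDS in first and later exons of the best-placed coding transcript and for clusters that name only a 3' UTR or only CDS; bars start at 0, lines are Wilson 95% intervals and labels give clusters with an identifier over all. Later-exon members reach 26.5% and 26.3%, first-exon members 2.27% and 5.47%.

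Of the 3 deepest members with a circRNA identifier in each subgroup, 5 lay in exon 2 or 3 and Gm8801 could not be placed in a coding transcript. In Mgat4a, an enzyme of N-glycan branching, the cluster at chr1:37536298-37536445 held 166 reads and 2 identifiers in exon 2, and that of Sipa1l1, a postsynaptic regulator of Rap signalling, at chr12:82340691-82340958, held 155 reads and 3 identifiers in exon 2. Gm8801, a non-coding gene, held 145 reads and 2 identifiers at chr17:35947367-35947540. With CDS they were Lcorl, with 216 reads and 3 identifiers in exon 2, and, both in exon 3, Tex264, an autophagy receptor of the endoplasmic reticulum, and Csnk1g1, a casein kinase, with 131 reads and 1 identifier each. An intron was also named by 43.6% of the members without CDS and 63.0% of those with CDS, against 5.09% of 3' UTR and 70.2% of CDS clusters. Spliced and unspliced RNA cannot be told apart in such clusters.

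The deepest members in coding 5' UTRs came from genes of varied roles. Srgap3, a GTPase-activating protein of Slit-Robo signalling, held 180 reads at chr6:112946507-112946884, over a transcript start and with matches to miR-15a-5p, miR-27a-3p, miR-135a-5p, miR-181a-5p and miR-221-3p. The windows of Srgap3 above show the miR-15a-5p match next to an ATT repeat. Tanc1, a postsynaptic scaffold, held 110 reads, Ppp1r9b, the spine protein spinophilin, 106, and Lrfn5, a synaptic adhesion molecule, 95 in exon 1 of a 5' UTR of 1078 bases. Brwd3, a bromodomain protein, held 154 reads, Mkl2, a coactivator of serum response factor, 143, Rab6a, a Golgi GTPase, 108 at 74.7% GC, the zinc finger gene Zfp109 98 and Celf4, an RNA-binding protein of neurons, 95. These clusters were among the 15 deepest members without CDS, as were those of Mgat4a, Sipa1l1, Gm8801 and 1700020I14Rik and the cluster over Mir127.

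With CDS, the deepest cluster lay across the start codon of 6430548M08Rik, in exon 2, and held 666 reads at chr8:120145256-120145578. Agap2, a GTPase-activating protein of Arf proteins, held 239 reads in exon 1 at 72.2% GC. Lcorl held 216 at chr5:45795271-45795393, where the annotation gave coding 5' UTR and no start codon. Start codon clusters followed in Babam1, a subunit of a BRCA1 complex, with 199 reads, in Abhd17a, an enzyme that removes palmitate from synaptic proteins, with 196, in Polr2g, a subunit of RNA polymerase II, with 168, and in Cdc42bpa, a kinase that acts on the actin cytoskeleton, with 139. The cluster of Plekhg5, a guanine nucleotide exchange factor, held 133 reads at chr4:152107888-152108194 but no coding 5' UTR base. In all, 8 of these 10 deepest members with CDS held a start codon.

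Members were spread thinly over genes. They named 1571 genes, of which 85.4% had a single member cluster, and 102 genes had members in both subgroups, or 12.9% of the 790 without CDS and 11.6% of the 883 with CDS. Of the 1492 coding genes among them, 816 (54.7%) also had a 3' UTR cluster, against 60.0% of all genes with an exonic cluster, and 353 had no other exonic cluster. Members held a median of 35.2% of their gene's exonic reads. Most genes with a member thus also had clusters elsewhere in their exons.

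The genes with the most members carried few or none of them in a coding 5' UTR. Meg3, an imprinted non-coding RNA, had 15, and A330023F24Rik, also non-coding, had 7. Gria3, an AMPA receptor subunit, had 8 members with 10 to 79 reads over the gene on chromosome X. Of these, the cluster of 51 reads at chrX:41402769-41402935 held the start codon, the other 7 held no coding 5' UTR base, and 5 of the 7 carried a circRNA identifier. Map4k2, a kinase, had 7 members with 13 to 117 reads and Lmtk3, a kinase of neurons, 6 with 10 to 77, none with a coding 5' UTR base. Lrp8, a receptor for reelin, had 6 with 13 to 44 and Plekhg5 5 with 24 to 133, again without one. All of these lay on the plus strand.

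The deepest member of all lay over a miRNA gene. The cluster at chr12:109592822-109592942 on the plus strand held 723 reads over Mir127 in 6430411K18Rik, a non-coding gene opposite Rtl1. Both mature arms of miR-127 lie inside its 121 bases, the 5p arm starting at base 33 of the cluster and the 3p arm at base 67. Close by, 70 reads lay over Mir433 at chr12:109591751-109591835, with the 3p arm inside. In A330023F24Rik, the host of the miR-29b-2 and miR-29c pair, 86 reads lay over Mir29b-2, with the 5p arm inside and the cluster ending soon after it, and 86 over Mir29c, with both arms inside. The arms are printed with their seeds in capitals. The table does not tell the miRNA, its precursor and other RNA apart.

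miR-127-5p: cUGAAGCUcagagggcucugau
miR-127-3p: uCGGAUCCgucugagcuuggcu
miR-433-3p: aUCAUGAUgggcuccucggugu
miR-29c-3p: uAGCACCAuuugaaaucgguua
miR-29b-2-5p: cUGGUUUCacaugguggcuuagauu

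The other members over miRNA genes were smaller. Map4k2 held 117 reads over Mir6989, Dock3 39 in its coding 5' UTR over a gene annotated as the miRNA Gm22238, and Etfb 27 over Mir7051. Leaving out the clusters over small RNA genes left the median of both subgroups at 20 reads.

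Mir127 and Mir433 belong to an imprinted region expressed from the maternal chromosome, of which 23 members were found in a row over 117 kb, all on the plus strand of chromosome 12. Meg3 had 15 with 513 reads, between 10 and 86 each, 6430411K18Rik had 3 with 820, and Rian, another imprinted host of small RNAs, had 5 with 139, between 12 and 47 each. Outside Mir127, no member in these genes exceeded 86 reads. Matches to miR-128-3p lay in 3 of the Meg3 clusters and in 1 of Rian. The remaining deep non-coding members were Gm8801 with 145 reads and 1700020I14Rik with 142, and by annotation 40 of the 109 belonged to lincRNAs and 27 to processed transcripts.

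**Figure D5:**
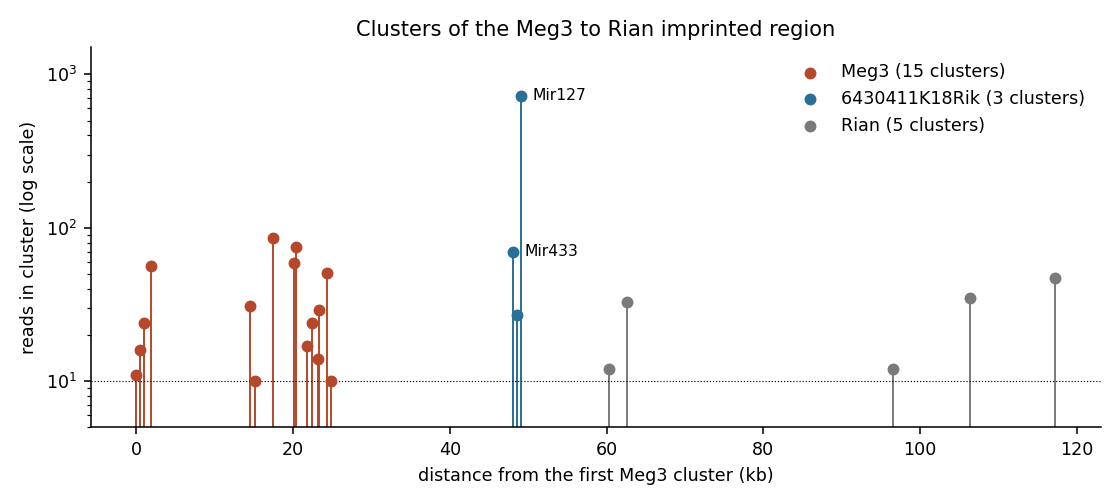
Reads per member cluster (y axis, log scale; dotted line at the table's minimum of 10) by distance in kb from the first Meg3 cluster (x axis) for Meg3, 6430411K18Rik and Rian. The cluster over Mir127 reaches 723 reads and every other one stays at or below 86.

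The lists of genes were read by how many of their genes had a member with a coding 5' UTR base. Over all 7836 protein-coding genes with an exonic cluster the share was 17.3%, and over all protein-coding genes 6.19%. Of the 24 glutamate synapse genes, 13 had one (54.2%, Wilson 35.1 to 72.1). The deepest were in Gria4, an AMPA receptor subunit, with 84 reads at the start of its 5' UTR and 67 reads at -207 from its start codon, and Gria3, described above. Others were Shank1, a postsynaptic scaffold, with 44 reads, the adhesion molecule Nlgn1 with 32 and Camk2a itself with 26. Of 26 genes for RNA-binding proteins, 10 had one (38.5%, 22.4 to 57.5), led by Mbnl2, a splicing regulator, with 93 and 18 reads, both in the 5' UTR, and Celf4 with 95. The 4 members of Pum2, a translational repressor, held none. Of 20 neuronal transcription factors 7 had one, led by Neurod2 with 54 reads at -92 from its start codon. No share was set against gene length or expression, so the shares are a description.

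Genes known for control through the 5' UTR were reached in part. Apart from the first list below, the shares were close to the 17.3% of protein-coding genes with an exonic cluster. Of 12 mRNAs known for upstream reading frames, 5 had a member with a coding 5' UTR base (41.7%, Wilson 19.3 to 68.0). They were Slc35a4 with 25 and 23 reads, the eIF2 phosphatase subunit Ppp1r15b with 37, the protease Bace1 with 18, the stress-response factor Atf4 with 17, across its start codon, and Amd1, an enzyme of polyamine synthesis, with 13. Of 18 mRNAs that begin with a terminal oligopyrimidine tract, which couples their translation to mTOR, 3 had one (16.7%, 5.84 to 39.2). They were the elongation factors Eef1a1 with 29 reads and Eef2 with 15, and the ribosomal protein Rpl4 with 16. Of 21 initiation factors and their regulators 3 had one (14.3%, 4.98 to 34.6), Eif5a with 18 reads, Eif1 with 17 and Eif3b with 16. Of 16 activity-induced genes 3 had one (18.8%, 6.59 to 43.0). The immediate early gene Junb led with 79 reads at -242 from its start codon, followed by Homer1 with 24 and Nr4a2 with 21. Apart from Junb and Ppp1r15b, these were clusters of ordinary depth.

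Markers of cell types other than the labelled Camk2a neurons were present among the members. Each list of markers had a share whose interval includes the 17.3% of protein-coding genes with an exonic cluster. Of 10 excitatory forebrain markers 4 had a member with a coding 5' UTR base (40.0%, Wilson 16.8 to 68.7). They were Nrgn with 74 reads, Neurod2, the glutamate transporter Slc17a7 with 41, and Camk2a. Of 8 astrocyte markers 3 had one (37.5%, 13.7 to 69.4), the glutamate transporters Slc1a2 with 40 and 40 reads and Slc1a3 with 17, and Aldoc with 17. Of 8 interneuron markers Gad1 had one with 18 reads (12.5%), and of 6 endothelial markers Cldn5 had one with 11 (16.7%). The oligodendrocyte marker Cnp had 2 members with 49 and 11 reads, neither with a coding 5' UTR base, and 0 of 8 microglial markers had a member. With all libraries in 1 count, signal from tagged neurons and background from other cells cannot be told apart.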

How the data were processed

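The deposited table has a whole-number read count per cluster, at least 10, which is not normalized, per the file headers; it gives the genes in each region, circRNA identifiers and 1281 counts of 6-base miRNA matches. Reads were aligned with BWA to mm10, per the submitters' processing notes. The cluster caller, the libraries that entered it and any use of the controls were not given in the sources used here. A planned comparison of Flag-Ago2 with control libraries could not be run, because 0 columns belong to a single library.

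Members, lists and named genes were chosen with earlier results of these data known. Named are the 15 deepest members without CDS, the 10 deepest with CDS, the 5 genes with the most members, the 3 deepest with a circRNA identifier per subgroup, the 2 deepest per leading family, the 2 leading genes per list and members over miRNA genes. Some genes that this rule names are not reported here. Other names were chosen after their values were seen. Of the gene names, 1545 matched GENCODE M21, 23 only RefSeq, and 3 neither. Overlaps were strand-specific, with at least 1 base. Sequence came from GENCODE transcripts and RefSeq promoters (mm10), for clusters within a single exon or promoter. For the listed families, match columns were recounted with 5 bases of flank in clusters with sequence, among them 1109 of the 1889 members. They agreed in 100% of these clusters. Shares have Wilson and rates exact Poisson intervals at 95%; reads were amplified with 15 PCR cycles without molecular identifiers, so these cover counting error only. Python 3.11.15, pandas 2.3.3 and SciPy 1.17.1 were used, and the counting steps were tested on simulated data. 6-base sites of miRNAs without a reference sequence, among them miR-124-3p, were read from their columns only.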

Additional observations from a re-analysis of the deposited data

Results flagged for a closer look

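A signal lay outside the members: 167 clusters name both a 5' UTR and a 3' UTR and so were left out by the rule. They held 4721 reads, with a median of 22, and the deepest, with 194 reads, was in Gria3. By annotation 34 of them held a base of a coding 5' UTR and 132 a base of a coding 3' UTR, and 129 of the 167 (77.2%) lay on the plus strand. With no column for the control libraries, these values could not be set beside a background.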

How the results depend on the processing

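No paired analysis was possible because the table has no columns for single libraries, and for the same reason no library could be left out. Of 47 alternative values for the main results, 32 stayed within the counting interval, or within 1.5 times for the count of families above words of the same letters, which was 17 to 20. One of these counts, 18, was that of the opposite strand, with which a miRNA cannot pair. The narrow range is therefore no measure of how well the count picks out miRNA sites. At 20 reads or more, the share of the table was 1.42% without CDS and 1.56% with CDS, the median reads 29 and 30, the circRNA share without CDS 9.39%, the intron share with CDS 66.0% and the density in 5' UTRs 22.2 per 100 kb; fewer clusters enter there by construction. With rows that also name a 3' UTR, the share without CDS was 1.45%. Without clusters that name an intron, the circRNA share was 4.17% without CDS and 14.1% with CDS. In coding 5' UTR clusters alone the median GC content was 63.0%. In start codon clusters alone it was 61.7%, with a circRNA share of 14.2% and an intron share of 57.7%. With basic transcripts only, 0.447% of the members without CDS held a start codon, against 0.895%. For single families, a minimum of 20 reads moved 3 of 29 rates beyond the interval and the opposite strand 21. The 7-base matches, which are fewer by construction, moved all 29. Leaving out the deepest cluster moved 0 of 29. That cluster, over Mir127, holds no match to these families, so leaving it out could hardly move a rate and tells nothing about their stability. The cause of the other shifts was not tested. The table's minimum of 10 reads means that a gene without a member may still have been bound below it.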
